A study of Mus musculus with 12 samples.

Results

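The levels of 10 heat shock protein transcripts were followed in cultured mouse hepatocytes, the main cell type of the liver. The genes were taken by name from the deposited table: Hspa8, Hspa1a, Hspa1b, Hspb1, Hsp90aa1, Hsp90ab1, Dnajb1, Hsph1, Hspd1 and Hspe1. Each name had 1 row, so all 10 were found among 37991 genes, and all 10 were among the 11213 genes that were abundant enough to test (1 FPKM or more in 3 or more libraries, FPKM being fragment counts scaled to gene length and library size). There were 12 libraries in 4 groups of 3. KO hepatocytes came from male mice, 10 weeks old, whose Nr1d1 and Nr1d2 genes (REV-ERBα and REV-ERBβ) were both floxed and which had received AAV8-TBG-Cre-GFP 2 weeks before, with TBG, a hepatocyte promoter, driving Cre. Control hepatocytes came from mice of the same floxed genotype, sex and age given AAV8-TBG-GFP, so the control groups lack Cre as well as the deletion, and the effects of the 2 cannot be told apart. Each genotype was kept for 8 hours in 10 µM SR9009, a synthetic compound described as a REV-ERB agonist, or in the solvent DMSO. The 4 groups are called KO SR9009, KO DMSO, control SR9009 and control DMSO. All cells had been isolated with collagenase and plated on collagen. The labels do not state whether replicates are separate mice, so p-values measure the spread between these libraries, which may be technical.

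Heat shock proteins are molecular chaperones that bind unfolded stretches of other proteins and keep them from clumping. HSP70 proteins work in cycles driven by ATP, with HSP40 proteins delivering the client and HSP110 proteins exchanging the nucleotide, while HSP90 acts on nearly folded clients such as nuclear receptors and kinases. Small heat shock proteins hold unfolded clients without ATP, and HSP60 with its lid HSP10 folds proteins inside the mitochondrion. The transcription factor HSF1 raises many of these genes under stress by binding heat shock elements, inverted repeats of a short unit. Some members, such as Hspa8 and Hsp90ab1, are made steadily in unstressed cells, and others, such as Hspa1a and Hspa1b, are known as stress-induced forms.

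Depth, read from the step size of low values, ran from 55.5% to 100% of the deepest library, with control SR9009 replicate 1 (55.5%) and KO DMSO replicate 1 (63.4%) the shallowest. The targeted genes do not check the labels, since the deposited values cover whole gene models and no source used here says which part was deleted. Nr1d1 stood at 17.4, 17.5 and 18.3 FPKM in KO DMSO, against 18.3, 18.3 and 19.0 FPKM in control DMSO. It stood at 22.5, 21.5 and 22.2 FPKM in KO SR9009, against 20.1, 19.0 and 19.4 FPKM in control SR9009, and was called higher in KO there (log2 difference 0.17, adjusted p = 0.043). SR9009 also raised it in KO (log2 change 0.30, adjusted p = 0.00472). Nr1d2 stood at 16.3, 16.2 and 16.1 FPKM in KO DMSO, against 13.9, 14.7 and 17.4 FPKM in control DMSO, and passed in none of the 5 comparisons (adjusted p = 0.19 to 0.991). The summed level of 8 hepatocyte markers was 31837 to 40524 FPKM across the libraries, while that of 6 stellate cell markers was at most 1.49 FPKM and that of 4 leukocyte markers at most 0.717 FPKM. In bulk libraries, fewer cells of a type and less RNA per cell cannot be told apart.

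The members spanned a wide range of levels. Averaged over the 12 libraries, they ran in the order Hspa8 (513 FPKM), Hsp90ab1 (463), Hspd1 (219), Hspe1 (130), Hspb1 (127), Hsp90aa1 (106), Hsph1 (18.5), Dnajb1 (13.8), Hspa1b (5.40) and Hspa1a (1.62). Hspa8, the constitutive cytosolic HSP70, ranked 142nd of all genes in the table, and Hspa1a ranked 10012th. Together the 10 genes summed to 1744, 1662 and 1620 FPKM in KO SR9009, 1427, 1411 and 1434 FPKM in KO DMSO, 1693, 1720 and 1712 FPKM in control SR9009, and 1587, 1567 and 1586 FPKM in control DMSO. The sums of both SR9009 groups lay above those of their DMSO groups without overlap, and the KO DMSO sums were the lowest of the 4 groups. As a share of all FPKM, the 10 genes made up 0.304% ± 0.0074 in KO SR9009, 0.261% ± 0.0041 in KO DMSO, 0.297% ± 0.0118 in control SR9009 and 0.278% ± 0.0053 in control DMSO (SD, n = 3 each).

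**Figure D1:**
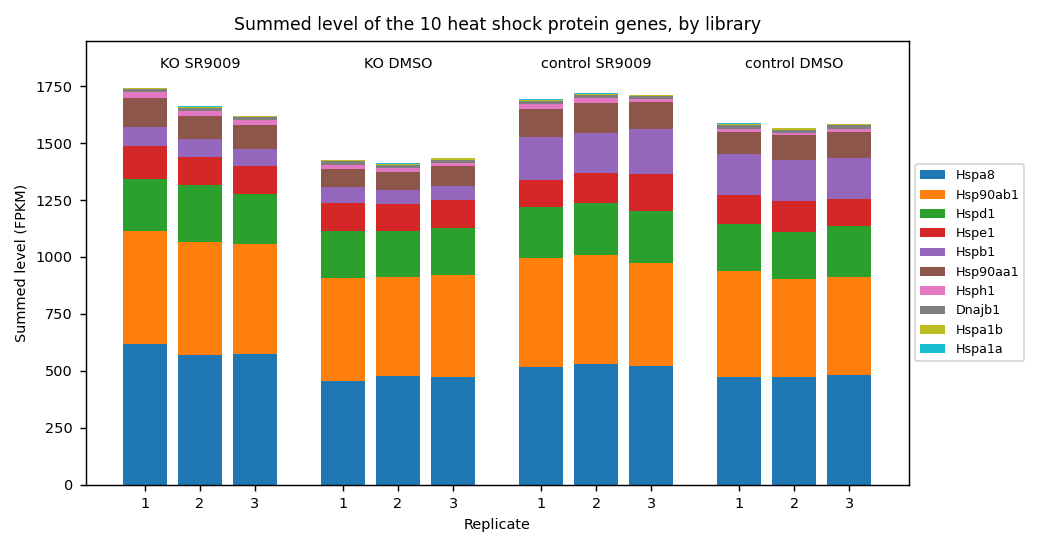
Stacked levels (FPKM, vertical axis) of the 10 heat shock protein genes in each of the 3 replicates of KO SR9009, KO DMSO, control SR9009 and control DMSO. Hspa8 and Hsp90ab1 fill 56.8% to 65.2% of each bar, and the Hspb1 segment is narrow in all 6 KO bars.

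The order of the middle members depended on the genotype. Hspb1 was above Hspe1 and Hsp90aa1 in every control library, and below both in every KO library. Hspe1 and Hsp90aa1 overlapped in KO SR9009 and in control SR9009, but not in KO DMSO or control DMSO, where Hspe1 was higher. Hspa8 lay above Hsp90ab1 in all 4 groups without overlap. Hsph1 and Dnajb1 overlapped in both DMSO groups, and Hsph1 stood above Dnajb1 in both SR9009 groups.

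**Figure D2:**
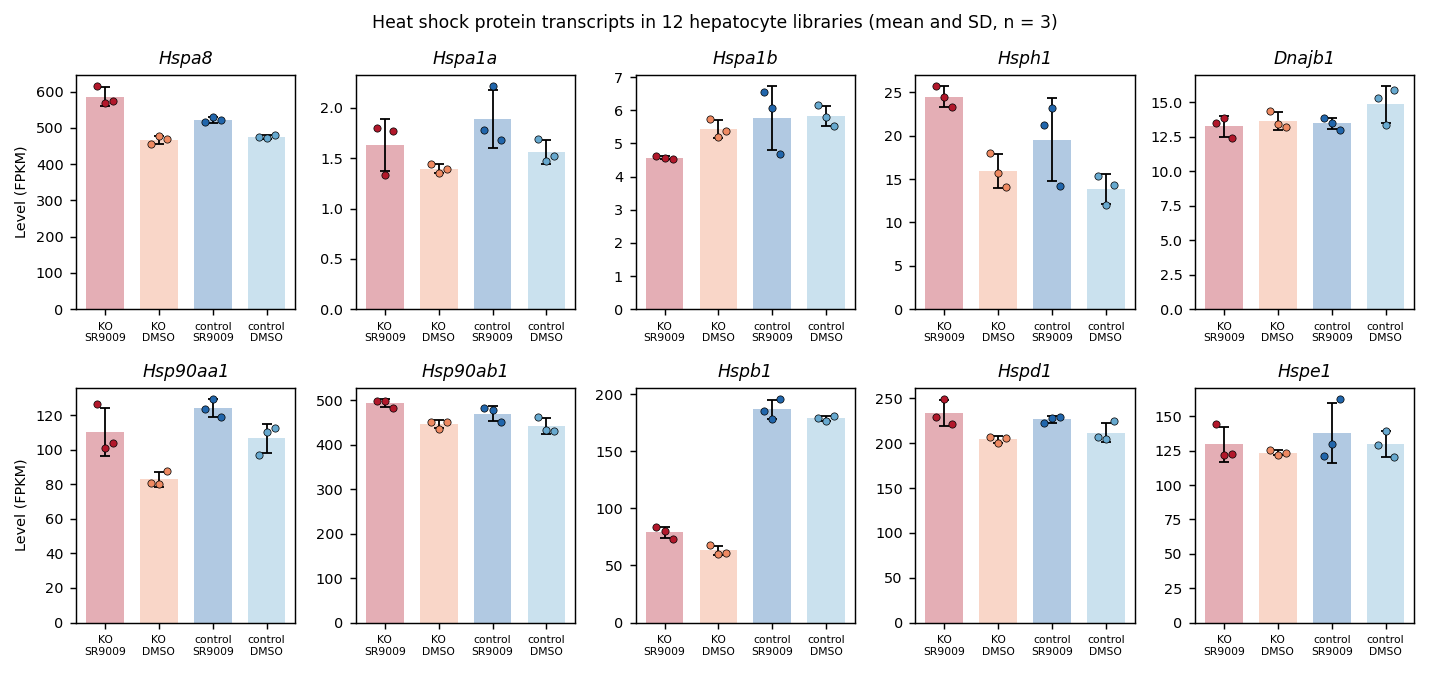
Level in FPKM (vertical axis, from 0, with its own scale for each gene) of each gene in KO SR9009, KO DMSO, control SR9009 and control DMSO. Bars are means, lines are SDs and points are the 3 libraries; Hspb1 is the gene whose KO libraries (60.5 to 83.5 FPKM) stand farthest below its control libraries (176 to 196 FPKM).

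In KO hepatocytes SR9009 raised 4 of the 10 members, each of another family. Hspa8, Hspb1, Hsp90aa1 and Hsph1 rose, none of the 10 fell, and 6 did not pass the test (adjusted p under 0.05 over all tested genes). Over all genes tested, 9.87% were called in this comparison, 5.32% higher and 4.56% lower. The median log2 change of the 10 was 0.17, against 0.00 for all genes tested. Groups did not overlap for 7 of the 10 (6 higher and Hspa1b lower), against 32.3% of all genes tested.

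In control hepatocytes none of the 10 passed with SR9009 (limma; 3 had an unadjusted p under 0.05: Hspa8, Hsp90aa1 and Hsph1), where 8.24% of all genes tested were called, 3.69% higher and 4.55% lower. The median log2 change of the 10 was 0.09, against -0.02 for all genes tested. Groups did not overlap for 2 of the 10, Hspa8 and Hsp90aa1, both higher, against 25.0% of all genes tested. The difference between the 2 SR9009 effects was tested directly as the interaction. None of the 10 passed (limma; Hspa8 and Hspb1 had an unadjusted p under 0.05), in a comparison that called 0.0268% of all genes tested (0.0178% higher and 0.00892% lower), namely Gstm3, Hmox2 and Vma21. The calls in KO hepatocytes are therefore not shown to be larger than the changes in control hepatocytes.

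In DMSO, Hspb1 and Hsp90aa1 were lower in KO than in control hepatocytes. These 2 of the 10 fell and none rose, a share of calls near the background. Over all genes tested, 20.0% were called, 11.7% higher and 8.32% lower. The median log2 difference of the 10 was -0.08, against 0.04 for all genes tested. The split of calls over all genes, 1307 higher and 933 lower, became 1642 higher and 704 lower when libraries were scaled to their summed FPKM without the mitochondrial chromosome. Groups did not overlap for 3 of the 10, Hspa1a, Hspb1 and Hsp90aa1, all lower, against 41.2% of all genes tested. Under SR9009, Hspb1 fell and Hspa8 rose in KO relative to control hepatocytes, again a share of calls near the background. Here 20.4% of all genes tested were called, 12.9% of all tested genes being higher and 7.43% lower. The median log2 difference of the 10 was -0.05, against 0.06 for all genes tested, and groups did not overlap for 5 of the 10 (3 higher, 2 lower), against 34.9% of all genes tested. Comparisons that share a group of libraries, such as SR9009 in KO and KO in DMSO, are not independent of each other.

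**Figure D3:**
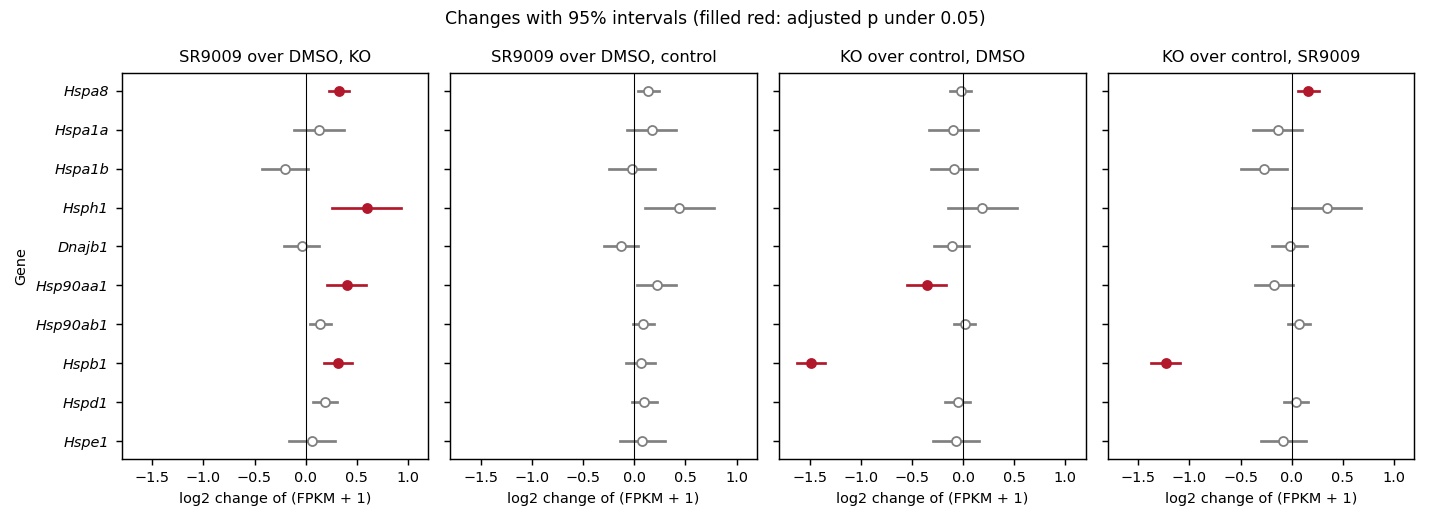
Log2 change of (FPKM + 1) with its 95% interval (horizontal axis) for each of the 10 genes, in the SR9009 comparison in KO and in control and in the KO comparison in DMSO and under SR9009. Filled red points passed the test; Hspb1 at -1.49 and -1.23 in the KO comparisons lies apart from the other genes, which lie between -0.36 and 0.60.

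Hspa8 (HSC70), the constitutive HSP70 that folds new proteins and uncoats clathrin vesicles, is on chromosome 9 (mm9, 40609067 to 40613283). It had 616, 568 and 575 FPKM in KO SR9009, against 456, 477 and 470 FPKM in KO DMSO. It had 515, 531 and 522 FPKM in control SR9009, against 474, 471 and 480 FPKM in control DMSO. Every SR9009 library was above every DMSO library of its genotype. In KO the rise was 1.25-fold (log2 change 0.32, SE 0.05, adjusted p = 0.000903), and in control the ratio was 1.10 (log2 change 0.14, 95% interval 0.04 to 0.24, adjusted p = 0.0916), which became 0.04 after quantile normalization (adjusted p = 0.728). Of the 50-base windows of the Hspa8 transcript (GENCODE M21), 74.8% occur in transcripts of other genes, most in Gm15459 (70.0%), which is not analysed here, so reads could be shared. The SR9009 effect in KO exceeded that in control by 0.19 on the log2 scale (95% interval 0.05 to 0.33), which did not pass over all genes (adjusted p = 0.607). Between genotypes, Hspa8 in DMSO differed by less than the spread (log2 difference -0.02, adjusted p = 0.773, and 0.03 after quantile normalization and 0.04 after scaling without the mitochondrial chromosome), and under SR9009 it was 1.12-fold higher in KO (log2 difference 0.16, adjusted p = 0.0242). That last call was lost without KO SR9009 replicate 1 (adjusted p = 0.102), without control SR9009 replicate 1 (adjusted p = 0.0642) and without the 2 shallowest libraries (adjusted p = 0.0772). It was also lost in the fit to these groups alone (adjusted p = 0.12) and without variance trend or robust estimation (adjusted p = 0.0695).

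Hspa1a and Hspa1b encode the stress-induced HSP70 and lie close together on chromosome 17 (mm9, 35106144 to 35109069 and 35093381 to 35096183). Both were low. Hspa1b had 4.62, 4.56 and 4.54 FPKM in KO SR9009, 5.73, 5.19 and 5.36 FPKM in KO DMSO, 6.55, 6.07 and 4.68 FPKM in control SR9009, and 6.15, 5.81 and 5.54 FPKM in control DMSO. The KO SR9009 libraries were the lowest of all and did not overlap any other group, yet neither SR9009 in KO (log2 change -0.21, 95% interval -0.43 to 0.02, adjusted p = 0.265) nor KO under SR9009 (log2 difference -0.27, 95% interval -0.49 to -0.05, adjusted p = 0.0858) passed. Without control SR9009 replicate 3, whose Hspa1b value was the lowest of its group, the KO difference under SR9009 passed at -0.39 (adjusted p = 0.00607), and it also passed after quantile normalization at -0.34 (adjusted p = 0.0136). Hspa1a had 1.80, 1.33 and 1.76 FPKM in KO SR9009, 1.44, 1.35 and 1.39 FPKM in KO DMSO, 1.77, 2.22 and 1.68 FPKM in control SR9009, and 1.69, 1.47 and 1.52 FPKM in control DMSO. Its KO DMSO values all lay below its control DMSO values, and it passed in none of the 5 comparisons (adjusted p = 0.416 to 0.983).

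The pair cannot be cleanly separated by short reads. Of the 2918 windows of 50 bases in the Hspa1a transcript (GENCODE M21), 58.8% occur in Hspa1b transcripts. Their summed level was 5.89 to 6.41 FPKM in KO SR9009, 6.55 to 7.17 in KO DMSO, 6.36 to 8.33 in control SR9009 and 7.06 to 7.84 in control DMSO, at or below 8.33 FPKM in every library while Hspa8 was at least 456 FPKM. The 250 bases before the 2 transcription starts are shown because they are nearly the same, with 247 of 250 bases identical and the same heat shock element pair, in capitals, 104 bases before each start (RefSeq, GRCm38.p6, chr17:34972157-34972406 for Hspa1a and chr17:34959239-34959488 for Hspa1b, minus strand, 5′ to 3′).
Hspa1a: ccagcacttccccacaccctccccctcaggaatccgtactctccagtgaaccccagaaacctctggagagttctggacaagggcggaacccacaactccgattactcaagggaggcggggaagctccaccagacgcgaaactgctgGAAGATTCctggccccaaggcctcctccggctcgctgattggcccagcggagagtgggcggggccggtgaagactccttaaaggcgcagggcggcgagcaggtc
Hspa1b: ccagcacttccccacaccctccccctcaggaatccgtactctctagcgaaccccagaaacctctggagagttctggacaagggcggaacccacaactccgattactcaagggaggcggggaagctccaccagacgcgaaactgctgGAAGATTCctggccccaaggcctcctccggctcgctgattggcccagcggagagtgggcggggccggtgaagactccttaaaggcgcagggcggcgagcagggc

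Hsph1 (HSP105), an HSP110 that exchanges the nucleotide of HSP70, is on chromosome 5 (mm9, 150416862 to 150438951). It had 25.8, 24.4 and 23.4 FPKM in KO SR9009, against 18.0, 15.7 and 14.1 FPKM in KO DMSO. It had 21.2, 23.2 and 14.2 FPKM in control SR9009, against 15.4, 11.99 and 14.3 FPKM in control DMSO. In KO the groups were apart, whereas in control 1 SR9009 library, replicate 3, lay among the DMSO values. The ratio was 1.54 in KO (log2 change 0.60, SE 0.15, adjusted p = 0.0301) and 1.41 in control (log2 change 0.44, 95% interval 0.10 to 0.78, adjusted p = 0.111). The difference between these effects was 0.15 (95% interval -0.32 to 0.63). The call in KO was lost in 7 of 21 alternatives, with adjusted p between 0.0581 and 0.113. These left out KO DMSO replicate 2 or 3 or any 1 of the KO SR9009 replicates, kept all genes regardless of level, or scaled to summed FPKM without the mitochondrial chromosome. Without control SR9009 replicate 3 the change in control was 0.65 and passed (adjusted p = 0.00589). None of the 50-base windows of the Hsph1 transcript occurred in a transcript of another gene.

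Dnajb1 (HSP40), which brings clients to HSP70 and is a well-known HSF1 target, is on chromosome 8 (mm9, 86132074 to 86135801). It had 13.5, 13.9 and 12.4 FPKM in KO SR9009, 14.4, 13.4 and 13.2 FPKM in KO DMSO, 13.9, 13.5 and 13.01 FPKM in control SR9009, and 15.3, 13.4 and 15.9 FPKM in control DMSO. The 4 groups overlapped, and its highest library was 1.28 times its lowest. The 95% interval of the SR9009 effect ran from -0.21 to 0.13 on the log2 scale in KO and from -0.30 to 0.04 in control, so rises as large as that of Hsph1 in KO lie outside both intervals. Across the 12 libraries, Dnajb1 correlated with Hspa8 at Pearson r = -0.43 (0.01 within groups) and with Hsph1 at r = -0.23 (0.63 within groups).

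Hsp90aa1 and Hsp90ab1 encode HSP90α, the inducible form of cytosolic HSP90, and HSP90β, the constitutive form. Hsp90aa1 (chromosome 12, mm9, 111928815 to 111940938) had 126, 101 and 104 FPKM in KO SR9009, against 80.7, 80.2 and 87.8 FPKM in KO DMSO. It had 124, 129 and 119 FPKM in control SR9009, against 96.8, 110 and 112 FPKM in control DMSO. KO DMSO was the lowest group and overlapped no other. SR9009 raised Hsp90aa1 1.33-fold in KO (log2 change 0.40, SE 0.09, adjusted p = 0.0113), and in control the ratio was 1.16 (log2 change 0.22, 95% interval 0.03 to 0.41, adjusted p = 0.159). In DMSO it was at 0.779 of its control level in KO (log2 difference -0.36, SE 0.09, adjusted p = 0.012), and under SR9009 the difference was -0.17 (95% interval -0.36 to 0.02, adjusted p = 0.187). Of the 50-base windows of its transcript, 58.5% occur in transcripts of other genes, most in Gm12346 (51.5%), which averaged 5.57 FPKM in KO SR9009, 4.08 in KO DMSO, 4.80 in control SR9009 and 4.76 in control DMSO. Without the 2 shallowest libraries the rise in KO no longer passed (adjusted p = 0.0526), nor did the fall in DMSO (adjusted p = 0.0532), and the fall also did not pass without control DMSO replicate 3 (adjusted p = 0.0533). Without KO SR9009 replicate 1, the difference under SR9009 was -0.27 and passed (adjusted p = 0.0302).

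Hsp90ab1 (chromosome 17, mm9, 45704724 to 45710220) was the steadiest member, its highest library being 1.16 times its lowest. It had 499, 499 and 482 FPKM in KO SR9009, 451, 436 and 451 FPKM in KO DMSO, 481, 478 and 450 FPKM in control SR9009, and 462, 433 and 430 FPKM in control DMSO. The KO SR9009 libraries stood above those of all other groups, and no comparison passed. Its SR9009 change in KO was 0.14 (95% interval 0.04 to 0.25, adjusted p = 0.0831), with 0.05 after quantile normalization (adjusted p = 0.738) and a call without control SR9009 replicate 3 (adjusted p = 0.0348). In control its change was 0.09 (95% interval -0.02 to 0.19, adjusted p = 0.316, with -0.01 after quantile normalization). Hsp90ab1 was 3.95 to 4.95 times Hsp90aa1 in KO SR9009, 5.14 to 5.59 times in KO DMSO, 3.70 to 3.90 times in control SR9009 and 3.83 to 4.77 times in control DMSO, so the ratio of the constitutive to the inducible form was highest in KO DMSO without overlap.

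Hspb1 (HSP25, the mouse form of HSP27), a small heat shock protein that also binds actin filaments, is on chromosome 5 (mm9, 136363789 to 136365433). It had 83.5, 79.9 and 73.2 FPKM in KO SR9009, 68.0, 60.5 and 61.3 FPKM in KO DMSO, 186, 179 and 196 FPKM in control SR9009, and 179, 176 and 181 FPKM in control DMSO. All 6 KO libraries were below all 6 control libraries. In DMSO the KO level was 0.354 of the control level (log2 difference -1.49, SE 0.06, adjusted p = 1.04e-08), and under SR9009 it was 0.423 of it (log2 difference -1.23, SE 0.06, adjusted p = 5.40e-08). Both calls held in all 21 alternatives. SR9009 raised Hspb1 1.25-fold in KO without overlap (log2 change 0.31, SE 0.06, adjusted p = 0.00817), also in all 21 alternatives (highest adjusted p = 0.0452). In control the ratio was 1.04 (log2 change 0.06, 95% interval -0.08 to 0.20, adjusted p = 0.646). The interaction was 0.25 (95% interval 0.06 to 0.45, adjusted p = 0.611).

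Other values also differed between the genotypes, some in the direction of Hspb1 and some in the opposite direction. Of the 50-base windows of its transcript, 51.6% occur in the pseudogene Hsp25-ps1 and 43.2% in Gm9817, so reads could be shared. Gm9817 had mean levels of 2.01 FPKM in KO SR9009, 1.75 in KO DMSO, 4.94 in control SR9009 and 4.33 in control DMSO, and Hsp25-ps1 averaged at most 0.52 FPKM in any group, far under Hspb1. The summed level of 10 Kupffer cell markers was 34.7 to 46.1 FPKM in KO DMSO, against 47.8 to 59.7 FPKM in control DMSO, and 44.3 to 46.8 FPKM in KO SR9009, against 49.6 to 52.8 FPKM in control SR9009. Of 8 such markers tested in DMSO, 4 fell (Marco, C1qb, Cd5l and C1qa) and Cd68 rose, where 20.0% of all genes tested were called. Marco fell most, to 1.66 ± 0.46 FPKM in KO DMSO against 9.52 ± 1.34 in control DMSO (SD, n = 3 each). Clec4f, a defining marker, was at 2.09 to 2.49 FPKM in KO DMSO against 2.13 to 4.18 FPKM in control DMSO and did not pass (limma adjusted p = 0.3055). Under SR9009, Marco fell, Cd68 rose and 6 did not pass, where 20.4% of all genes tested were called. The summed level of 5 cholangiocyte markers was 29.1 to 38.8 FPKM in KO DMSO, against 42.1 to 44.7 FPKM in control DMSO. In KO SR9009 it was 34.5 to 38.7 FPKM, against 39.4 to 61.7 FPKM in control SR9009. Most of the cholangiocyte sum was Spp1. Of its 2 tested markers Spp1 fell and Sox9 rose in KO, Sox9 to 9.09 ± 1.37 FPKM in KO DMSO, against 2.67 ± 0.53 in control DMSO (SD, n = 3 each; log2 difference 1.46, limma adjusted p = 1.57e-05), while the defining markers Krt19, Krt7 and Epcam were at most 1.02, 0.019 and 0.697 FPKM in any library of these groups. The summed level of 6 endothelial markers was 8.60 to 12.8 FPKM in KO DMSO, against 5.43 to 6.17 FPKM in control DMSO. In KO SR9009 this sum was 8.27 to 8.73 FPKM, against 5.85 to 6.95 FPKM in control SR9009. Of 3 endothelial markers tested, Stab1 and Lyve1 rose in KO in DMSO, and none passed under SR9009. Of 8 hepatocyte markers tested, Serpina1c, Apoa1 and Ttr rose in KO in DMSO and under SR9009. None of the 8 fell in DMSO, and Tat and Hnf4a fell under SR9009. Over all genes tested, 20.0% were called in DMSO and 20.4% under SR9009. The part of these cells in the levels of Hspb1 and Hsp90aa1 was not tested.

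The Hspb1 promoter is shown because it belongs to the member with the largest genotype difference. It holds 2 heat shock element pairs of the form GAANNTTC, in capitals, 117 and 97 bases before the start (RefSeq, GRCm38.p6, chr5:135887669-135887918, plus strand, 5′ to 3′).
Hspb1: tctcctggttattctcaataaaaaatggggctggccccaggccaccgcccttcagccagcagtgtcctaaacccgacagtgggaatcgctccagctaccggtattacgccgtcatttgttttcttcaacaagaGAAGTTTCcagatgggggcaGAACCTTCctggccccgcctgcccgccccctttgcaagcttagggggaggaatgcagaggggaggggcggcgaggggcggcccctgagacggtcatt

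Hspd1 (HSP60) and Hspe1 (HSP10) form the folding chamber of the mitochondrial matrix and its lid. They are neighbours on chromosome 1 and are read in opposite directions (mm9, 55134679 to 55145087 on the minus strand and 55144976 to 55148151 on the plus strand), and their models overlap by 112 bp, where reads of the 2 genes cannot be told apart without strand. Hspd1 had 229, 249 and 222 FPKM in KO SR9009, 207, 200 and 206 FPKM in KO DMSO, 222, 228 and 229 FPKM in control SR9009, and 207, 204 and 225 FPKM in control DMSO. In KO the SR9009 libraries all lay above the DMSO libraries, with a ratio of 1.14 that stood just outside the threshold (log2 change 0.19, 95% interval 0.07 to 0.31, adjusted p = 0.0505). It passed in 4 of 21 alternatives, with adjusted p from 0.0365. In control the ratio was 1.07 and the groups overlapped (adjusted p = 0.351).

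Hspe1 had 144, 122 and 123 FPKM in KO SR9009, 126, 122 and 124 FPKM in KO DMSO, 121, 130 and 163 FPKM in control SR9009, and 129, 140 and 120 FPKM in control DMSO. The groups overlapped in every comparison, and none passed (adjusted p = 0.624 to 0.994). The high value of 163 FPKM was that of control SR9009 replicate 3, the library with the low Hsph1. Although the 2 genes share a promoter region and their products work together, Hspd1 and Hspe1 correlated weakly across the 12 libraries (Pearson r = 0.14, Spearman rho = 0.17), with Hspd1 at 1.41 to 2.05 times Hspe1. The short Hspe1 transcript shares 35.2% of its 50-base windows with AC117239.2, which is not analysed here, and the Hspd1 transcript shares 42.8% with the pseudogene Hspd1-ps3, which averaged 4.61 FPKM in KO SR9009, 5.60 in KO DMSO, 5.04 in control SR9009 and 7.42 in control DMSO.

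The Hspe1 start and the second listed Hspd1 start, which diverge, share 1 run of heat shock units, 89 bases before the former and 144 bases before the latter. Relative to the first listed Hspd1 start (chr1:55088243), the run lies after the start and outside the window searched, which held none of these motifs. The run is shown as each gene reads it, with the units in capitals (RefSeq, GRCm38.p6, chr1:55088054-55088081, plus strand for Hspe1 and minus strand for Hspd1, 5′ to 3′). Beside it is the element of Hsph1, the member with the largest SR9009 change in KO (chr5:149636281-149636307, minus strand). That element begins at base 16, with the second listed Hsph1 start counted as base 1.
Hspe1: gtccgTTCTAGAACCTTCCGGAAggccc
Hspd1: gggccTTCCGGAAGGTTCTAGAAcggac
Hsph1: ctgcagaTTCTGGAAAGTTCtcctcag

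Heat shock element motifs were counted on both strands in the windows from 250 bases before to 50 bases after each RefSeq start, which were given for 7 of the 10 members in 10 windows. The pair GAANNTTC was found in 6 of the 7 members (Hspa1a, Hspa1b, Hspb1, Hsph1, Hspd1 and Hspe1). By window, it was in 7 of the 10 member windows and in 7.86% of all 32851 windows. The pair in the other order, TTCNNGAA, was found in Hsph1, Hspd1 and Hspe1, in 4 of the 10 member windows and in 8.52% of all windows. The run of 3 alternating GAA and TTC units with 2 free bases between neighbours, which contains both pairs, was found in the same 3 members. It was in 4 of the 10 member windows and in 0.603% of all windows. The Hspa1a and Hspa1b windows are nearly the same, the Hsph1 windows overlap, and Hspd1 and Hspe1 share their run, so these are not separate finds. The Dnajb1 windows held none of these motifs, and no member window held TATAAA, which was in 13.6% of all windows. Only exact matches were counted, so elements with imperfect units were not looked for in any window. Members with the run of 3 units differed in their SR9009 change in KO, which was 0.60 for Hsph1, 0.19 for Hspd1 and 0.06 for Hspe1. These matches describe the sequence and are not measured binding sites.

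**Figure D4:**
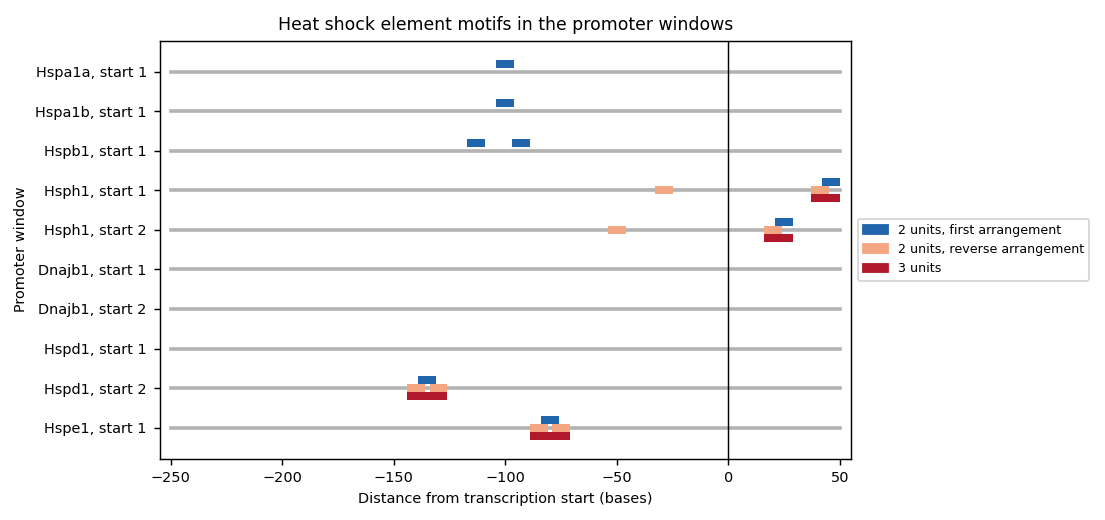
Position of exact matches to heat shock element motifs (coloured blocks, drawn to length) relative to the transcription start (horizontal axis, bases) in the 10 RefSeq windows of the 7 members that have one. Runs of 3 units appear in the windows of Hsph1, Hspd1 start 2 and Hspe1, and the Dnajb1 windows are empty.

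Members were compared with each other across the 12 libraries, as a description of points that share the group structure. Over the 12 libraries Hsp90ab1 and Hsph1 followed each other most closely (Pearson r = 0.92, Spearman rho = 0.84). After group means were taken out they correlated at r = 0.70. Within groups other pairs were closer, namely Hspa1b with Hsph1 (r = 0.81) and with Hsp90ab1 (r = 0.79), and Hspa8 with Hsp90aa1 (r = 0.73). Control SR9009 replicate 3 was the lowest library of its group for Hspa1b, Hsp90ab1 and Hsph1, and correlations without it were not computed. Hspa8 correlated with Hsp90ab1 (r = 0.84) and with Hsph1 (r = 0.81), but within groups these were -0.03 and 0.09. Hspa8 and Hspa1b correlated at r = -0.62 over the 12 libraries and at -0.15 within groups. The genes outside the set whose pattern was most like that of Hspa8 over the 12 libraries were Btg1 (r = 0.98), Faf1 (r = 0.96) and Mal2 (r = 0.95). Those most like Hspb1 were Mup19 (r = 0.99), Fdps (r = 0.99) and Pctp (r = 0.99). Those most like Hspd1 were Imp4, Mknk1 and Isy1 (r = 0.88 to 0.89), and those most like Dnajb1 were Csnk1g1, Rap1gap and 2810453I06Rik (r = 0.82 to 0.88).

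Genes that work with the 10 members were described from lists chosen with earlier results of these data known. Of 4 small heat shock proteins tested besides Hspb1 (of 9 listed), Hspb8, a partner of the co-chaperone BAG3 in selective autophagy, moved with both factors. Hspb8 had 270, 273 and 265 FPKM in KO SR9009, 166, 178 and 169 FPKM in KO DMSO, 384, 366 and 367 FPKM in control SR9009, and 238, 239 and 242 FPKM in control DMSO. None of the 4 groups overlapped. SR9009 raised Hspb8 1.58-fold in KO (log2 change 0.65, adjusted p = 6.85e-06) and 1.55-fold in control (log2 change 0.63, adjusted p = 8.41e-06), and KO levels were lower in DMSO (log2 difference -0.49) and under SR9009 (log2 difference -0.46). Hspb6, another small heat shock protein, fell in KO in DMSO, to 5.97 ± 2.36 FPKM in KO against 10.7 ± 1.09 FPKM in control (SD, n = 3 each, adjusted p = 0.0148). Of the 4 tested, 2 were called in KO in DMSO (20.0% of all genes tested) and 1 in KO under SR9009 (20.4%). With SR9009, 1 was called in KO (9.87%) and 1 in control (8.24%).

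Of 29 tested cytosolic partners and other HSP70 genes (of 30 listed), SR9009 raised 4 in KO and lowered none, where 9.87% of all genes tested were called. They were Hspa4, a second HSP110 (77.6 ± 0.59 FPKM in KO SR9009, against 60.5 ± 3.82 in KO DMSO, adjusted p = 0.00161), the HSP40 Dnaja2 (adjusted p = 0.0147), the HSP90 partner Chordc1 (adjusted p = 0.0151) and the HSP90 co-chaperone p23, Ptges3 (adjusted p = 0.0343). In control, Hspa4 rose (68.9 ± 2.81 FPKM in SR9009, against 55.04 ± 0.82 in DMSO, adjusted p = 0.004) and Hspa13, an HSP70 of the endoplasmic reticulum, fell (adjusted p = 0.0363). No other gene of the 29 passed there, where 8.24% of all genes tested were called, so the share of calls was not above the background. The list's median log2 change was 0.04 in KO, against 0.00 for all genes tested, and -0.01 in control, against -0.02. In KO against control hepatocytes in DMSO, 5 fell and 1 rose, so that 6 of 29 were called where 20.0% of all genes tested were, a share near the background. The list's median log2 difference there was -0.05, against 0.04 for all genes tested. Bag2, which inhibits the ubiquitin ligase CHIP, fell to 2.08 ± 0.28 FPKM in KO, against 6.19 ± 1.38 in control (SD, n = 3 each), and the HSP40 genes Dnajb5 and Dnajb4 (adjusted p = 0.00589 and 0.0205), Chordc1 and Cacybp also fell, while Hspa13 rose (adjusted p = 0.027). Under SR9009, 3 rose (Hspa13, St13 and Hspa4) and 4 fell (Bag2, Bag3, Dnajb4 and Dnajb5), so that 7 of 29 were called where 20.4% of all genes tested were, also near the background, with a median of 0.00 against 0.06. Of these, Bag3, the partner of HSPB8, was at 43.6 ± 1.37 FPKM in KO SR9009, against 53.6 ± 1.90 in control SR9009 (adjusted p = 0.00181).

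The CCT chaperonin folds actin and tubulin in the cytosol, and prefoldin hands them over. Of 13 such genes tested (of 14 listed), SR9009 raised Cct7, Cct6a and Cct2 in KO (9.87% of all genes tested were called) and Pfdn4 and Cct7 in control (8.24%), and lowered none. Cct7 was at 84.1 ± 1.82 FPKM in KO SR9009, against 68.0 ± 2.64 in KO DMSO (adjusted p = 0.00323), and at 93.8 ± 4.09 FPKM in control SR9009, against 82.0 ± 2.27 in control DMSO (adjusted p = 0.0418). The list's median log2 change was 0.16 in KO and 0.13 in control, against 0.00 and -0.02 for all genes tested. Between genotypes, 1 of the 13 was called in DMSO (20.0% of all genes tested) and 1 under SR9009 (20.4%). Cct7 fell in KO in DMSO (adjusted p = 0.00322) and Pfdn5 fell in KO under SR9009 (adjusted p = 0.0325).

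Of 17 mitochondrial chaperones and proteases tested, 1 was called with SR9009 in KO (9.87% of all genes tested), 1 with SR9009 in control (8.24%), 3 in KO in DMSO (20.0%) and 2 in KO under SR9009 (20.4%). Hspa9 (mortalin), the mitochondrial HSP70, rose with SR9009 in KO (311 ± 9.59 FPKM in KO SR9009, against 270 ± 0.90 in KO DMSO, adjusted p = 0.00961), and it fell in KO in DMSO (control DMSO at 308 ± 3.66 FPKM, adjusted p = 0.00727). Lonp1, a matrix protease, rose with SR9009 in control (151 ± 6.82 FPKM in SR9009, against 123 ± 4.14 in DMSO, adjusted p = 0.00602). Clpx, the unfoldase of the ClpXP protease, was at 34.8 ± 2.25 FPKM in KO DMSO, against 18.7 ± 2.72 in control DMSO, and at 32.5 ± 2.82 FPKM in KO SR9009, against 15.2 ± 0.96 in control SR9009, higher in KO in both. Dnaja3, a mitochondrial HSP40, was also higher in KO in DMSO and under SR9009 (adjusted p = 0.00115 and 0.0231). These 2 rose in the KO comparisons while Hspd1 and Hspe1 passed in neither.

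Hsf1, the main activator of the heat shock genes, had 12.4 ± 0.60 FPKM in KO SR9009, 13.8 ± 1.39 in KO DMSO, 13.2 ± 1.99 in control SR9009 and 13.1 ± 0.26 in control DMSO, and passed in none of the 5 comparisons (adjusted p = 0.445 to 0.994). Its transcript level does not measure its activity. The list of heat shock factors had 4 genes tested of 5 listed: Hsf1, Hsf2, Hsf4 and Hsbp1, the last not itself a heat shock factor. Of these, Hsf4 fell with SR9009 in control (2.16 ± 0.44 FPKM in SR9009, against 3.53 ± 0.54 in DMSO, adjusted p = 0.0261), where 8.24% of all genes tested were called. No other gene of the list passed in any comparison. In the SR9009 comparisons hepatocyte markers moved too: 5 of 8 fell in KO and 5 of 8 in control, and in each the other 3 did not pass. Over all genes tested, 4.56% were called lower in KO and 4.55% in control. The summed level of the 8 markers was 34961 to 36108 FPKM in KO SR9009 against 38051 to 40524 in KO DMSO. It was 31837 to 33995 FPKM in control SR9009 against 35886 to 36925 in control DMSO. Their part in the changes of the chaperones was not tested.

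**Figure D5:**
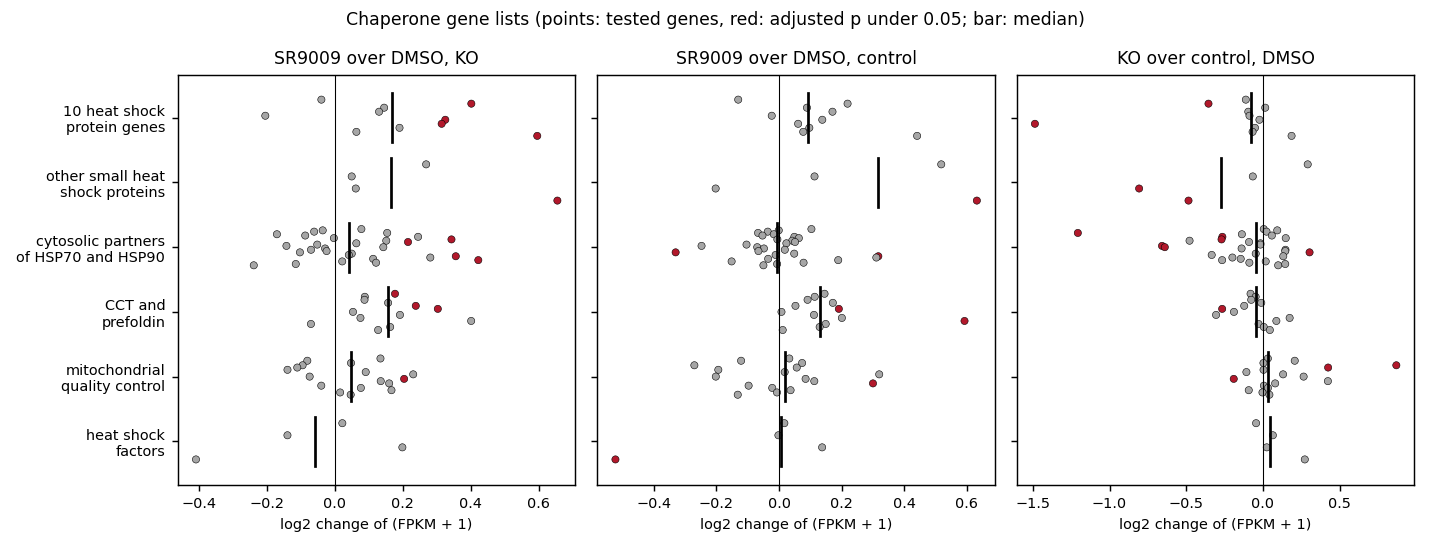
Log2 change of (FPKM + 1) (horizontal axis, with its own scale in each panel) of each tested gene in the 10-gene set and in 5 lists of related genes, for SR9009 in KO, SR9009 in control and KO in DMSO. Red points passed the test and bars are medians; for SR9009 in KO the median of the 10 genes is 0.17 and that of the cytosolic partners is 0.04.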

How the data were processed

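The members and the lists of related genes were chosen with earlier results of these data known. The deposited table holds 1 value per gene and library. HISAT2, StringTie and mm9 are named in the submitters' processing notes; no source used here states versions, annotation release or strand setting. The header names no unit. FPKM was inferred for the deposited values, since library totals differ (538521 to 604449) and low values times gene length cluster at a step of a size particular to each library. Absolute depth is unknown, so no counting interval is given. FPKM are shares, so a large change in abundant genes shifts all others.

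Values were transformed as log2(FPKM + 1), which understates changes of low genes such as Hspa1a. The 11213 genes reaching 1 FPKM in 3 or more libraries entered limma 3.58.1 in R 4.3.3 (a mean per group, all 12 libraries, trend and robust variance). Benjamini-Hochberg adjustment covered every tested gene, with a threshold of 0.05, and the fit was tested on simulated data. A ratio or fold is that of group means in FPKM, ± is the SD, and 95% intervals come from the fit. All members were named in every comparison, and of each other list up to 4 called genes with the smallest p. Hsf1, Nr1d1 and Nr1d2, and the 3 genes most like each of 4 members, were named too. Other called genes are named where few were called, chosen after their values were seen, as were Clec4f, Krt19, Krt7 and Epcam. Hsf2 and Hsbp1 are named to give the tested genes of their list. Alternatives covered the pseudocount, the filter, scaling, variance model, samples fitted, replicate block and leaving out libraries. Replicate numbers were not treated as pairs. At most 0.0535% of tested genes had equal values in any 2 libraries. Promoter sequences are RefSeq's (GRCm38.p6), a build other than that of the table's coordinates, and transcripts for shared windows are GENCODE M21's.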

Additional observations from a re-analysis of the deposited data

How the results depend on the processing

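Each of the 50 log2 changes of the members (10 genes in 5 comparisons) was recomputed under up to 21 alternatives, 1035 values in all. Of these, 990 kept direction and side of the threshold, 15 lost a call, 9 gained one and 21 changed sign. No change of sign befell a called change. For the count of members called, KO in DMSO gave 1 without the 2 shallowest libraries, and 1 to 2 when 1 library was left out. SR9009 in control gave 0 to 1 and KO under SR9009 gave 1 to 3 when 1 library was left out; KO under SR9009 gave 1 without trend or robust variance, in the fit to these groups alone and without the 2 shallowest libraries. SR9009 in KO gave 3 to 6 when 1 library was left out. Over all genes, SR9009 in control called 376 in the fit to these groups alone, 609 without the 2 shallowest libraries and 530 to 919 without 1 library, against 924. SR9009 in KO called 603 to 1438 without 1 library, against 1107, and KO under SR9009 called 1518 in the fit to these groups alone, against 2283. The interaction called 1 gene without a filter, after quantile normalization, without trend or robust variance and without the 2 shallowest libraries, 0 with the replicate block and 0 to 5 without 1 library, against 3. The cause of these differences was not tested.

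The replicate block changed no call of a member. Deviations of libraries with the same number correlated at -0.112 to 0.122, those with different numbers at -0.117 to 0.181, and 5 of 12 libraries correlated best with their own number, so the numbers were not taken as pairs.

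For KO in DMSO, Hspa8 was 0.0343 after quantile normalization and 0.04 after scaling without the mitochondrial chromosome, and Hspd1 was 0.0106 after that scaling. Quantile normalization gave -0.0141 for Hsp90ab1 with SR9009 in control, and the scaling gave 0.0273 for Dnajb1 in KO under SR9009. Leaving out 1 library at a time gave ranges across 0 for KO in DMSO (-0.0037 to 0.0478 for Hsp90ab1), SR9009 in control (-0.108 to 0.0979 for Hspa1b and -0.0468 to 0.1646 for Hspe1) and SR9009 in KO (-0.0706 to 0.0023 for Dnajb1 and -0.0165 to 0.1053 for Hspe1). The same held for the interaction (-0.0937 to 0.0443 for Hspa1a, -0.0502 to 0.2889 for Hsph1 and -0.1016 to 0.1098 for Hspe1) and for KO under SR9009 (-0.0516 to 0.0212 for Dnajb1, -0.0071 to 0.0779 for Hspd1 and -0.1692 to 0.0422 for Hspe1). Absolute depth is unknown, so the share of counting error in the spread of the low Hspa1a and Hspa1b values cannot be given.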
